A study of Rattus norvegicus with 8 samples.

Results

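The clones described here are the rat cDNA clones of 3 libraries, UI-R-C1, UI-R-C2 and UI-R-C2p, printed on spotted 2-colour arrays. They were chosen by name, as every spot whose clone name starts with 1 of those 3 library names, and the spots that share a name were averaged. The choice gave 1709 of the 8778 clones on the array, of which 1075 belonged to UI-R-C1, 564 to UI-R-C2 and 70 to UI-R-C2p. The remaining 7069 clones came from 7 other libraries of the same naming scheme, UI-R-A0, A1, BT0, C0, E0, E1 and Y0, and are called the other UI-R clones. On each of 8 arrays, 1 rat RNA, a control mix of brain, heart and liver, was hybridised against itself, labelled by an indirect protocol with Cy3 in channel 1 and Cy5 in channel 2. One channel carried the name test and the other the name ref, although the labels describe the same biological sample in both. In the test_in_Cy5 group (4 arrays) the RNA named test was in Cy5, and in the test_in_Cy3 group (4 arrays) it was in Cy3. All 8 arrays were technical repeats of 1 RNA, so each p-value below measures the spread between arrays and not between animals.

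Names that begin with UI-R belong to clones of the University of Iowa rat expressed sequence tag programme, in which cDNA was cloned at random and read from its ends. That programme used normalised libraries, in which frequent transcripts are made rarer, and serially subtracted libraries, in which clones already sequenced are depleted by hybridisation. The files do not say how UI-R-C1, UI-R-C2 or UI-R-C2p was made and do not pair a clone with a gene, so the clones are given by identifier alone. None of the 8778 identifiers (0 matches) was found in the rat gene table used here.

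Some features of the arrays bear on all values. The array test_in_Cy3 replicate 3 stood apart: its median Cy5 intensity over the member clones was 442707, against 128871 to 161828 on the other 7 arrays, and 24.5% of the member spots carried the flag value 0 there, against 0.263% to 2.34% elsewhere. On the arrays numbered 4, control spots ran against the labels: control-15 spots gave a log2 test over ref of 2.94, 2.98 and 3.08 for the label numbers 1, 2 and 3 and of -2.77 for number 4, where blanks gave -0.057, -0.056, -0.021 and -0.083. No brightness value below depends on which channel was named test. For blanks, the 56 spots named BLANK, the recorded intensity was 9.02 to 10.02 times the recorded local background in the Cy5 channel. In the Cy3 channel it was 9.30 to 9.54 times. Whether the intensity and background columns share a scale was not tested. These ratios therefore do not show that empty spots were brighter than their surroundings. Blanks and not the local background served as the measure of an empty spot.

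Over all rows of the print blocks, most member clones were about as bright as the median blank. The blanks all lay in row 16 of the blocks and most members in other rows. In row 16 the median member stood at 1.38 times the median blank over both channels (n = 227). In Cy3 the median UI-R-C1 clone lay at 0.936 to 1.07 times the median blank over the 8 arrays, the median UI-R-C2 clone at 0.912 to 1.05 times, the median UI-R-C2p clone at 1.08 to 1.30 times and the median of the other UI-R clones at 1.12 to 1.23 times. In Cy5 the same ratios were 0.986 to 1.27 for UI-R-C1, 0.955 to 1.21 for UI-R-C2, 1.32 to 1.76 for UI-R-C2p and 1.37 to 1.85 for the other UI-R clones. Over all rows UI-R-C1 and UI-R-C2 were the dimmer of the 3 libraries, and the UI-R-C2p median ran close to that of the other UI-R clones. Those clones are pooled here and not split by library. In row 16, which held 58 of the 70 UI-R-C2p clones, the UI-R-C2p median was 1.40 times the median blank. The other UI-R clones stood at 1.81 times there. The bright end was lower too: the 95th percentile of the members in Cy5 reached a median over arrays of 4.39 times the median blank, against 12.7 times for the other UI-R clones.

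The brightness of a clone on an array was taken as the mean log2 intensity of both channels without background correction, and libraries were compared by the difference of their medians on each array. Over the 8 arrays the members were lower than the other UI-R clones by a log2 difference of -0.34 ± 0.072 (SD, n = 8 arrays), a ratio of 0.787, and were lower on 8 of 8 arrays. UI-R-C1 differed from the other UI-R clones by -0.34 ± 0.075 and UI-R-C2 by -0.38 ± 0.080, each lower on 8 of 8 arrays. Each of these differences had an adjusted p of 0.00912 in an exact two-sided sign-flip permutation test over arrays, with Benjamini-Hochberg adjustment over 7 comparisons. The unadjusted p of 0.00781 was the smallest that 8 arrays can give.

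UI-R-C2p differed from the other UI-R clones by -0.041 ± 0.066, with an adjusted p of 0.125 in the same exact test. It was lower on 7 of 8 arrays, and on test_in_Cy3 replicate 3 it was higher by 0.10. Without that array the difference was -0.061 ± 0.034, with an adjusted exact p of 0.0156 over 7 arrays. Between the libraries, UI-R-C2 was lower than UI-R-C1 by -0.044 ± 0.011, while UI-R-C2p was higher than UI-R-C1 by 0.30 ± 0.12 and higher than UI-R-C2 by 0.34 ± 0.12. These 3 differences kept 1 sign on 8 of 8 arrays and had an adjusted p of 0.00912 in the exact test.

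The libraries were not spread alike over the array. Each of the 48 print blocks held 19 rows of spots, and the member clones lay in a few of these rows. Of the 1075 UI-R-C1 clones, 319 lay in rows 1 to 6, 543 in rows 7 to 12 and 213 in rows 13 to 19. Of the 564 UI-R-C2 clones, 490 lay in rows 7 to 12 and 74 in row 16. Of the 70 UI-R-C2p clones, 58 lay in row 16 and the other 12 in row 9. All 56 blanks also lay in row 16, in block columns 2 and 4.

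Brightness moved with the row in the members and in the other clones alike. The median member lay at 1.08 times the median blank in rows 1 to 6 (n = 319), 1.03 times in rows 7 to 12 (n = 1045) and 1.43 times in rows 13 to 19 (n = 345). For the other UI-R clones the ratios were 1.27 (n = 2361), 1.29 (n = 1823) and 1.63 (n = 2885) in the same rows. The members were thus the dimmer clones in each of the 3 bands, and both sets were brightest in the last rows. Why the rows differed was not tested.

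Row 16 was the single row that held all 3 libraries together with the blanks, and it was set apart after the values were seen. There the median clone lay at 1.37 times the median blank for the 95 UI-R-C1 clones, 1.34 times for the 74 UI-R-C2 clones and 1.40 times for the 58 UI-R-C2p clones, against 1.81 times for the 219 other UI-R clones. UI-R-C2p minus UI-R-C1 was 0.031 ± 0.093 (range -0.10 to 0.15 over arrays), with an adjusted p of 0.375 in the exact test, in place of the 0.30 over all rows. UI-R-C2p minus UI-R-C2 was 0.058 ± 0.094 (range -0.052 to 0.17), adjusted exact p = 0.155, and UI-R-C2 minus UI-R-C1 was -0.027 ± 0.036 (range -0.083 to 0.018), adjusted exact p = 0.120. The 3 libraries therefore did not pass the test against each other within that row, although the ranges do not show that they were equal. In rows 13 to 19 as a whole UI-R-C2p was lower than UI-R-C1 by -0.087 ± 0.045 on 8 of 8 arrays (adjusted exact p = 0.0109), the opposite sign to the value over all rows. UI-R-C2 was lower than UI-R-C1 in those rows by -0.14 ± 0.070 and in rows 1 to 12 by -0.021 ± 0.013, each on 8 of 8 arrays (adjusted exact p = 0.0109).

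Against the other UI-R clones, pooled over source plates, all 3 libraries were lower in row 16. This held for UI-R-C2p too, which had not passed the test over all rows. UI-R-C2p was lower there by -0.37 ± 0.080, UI-R-C1 by -0.40 ± 0.089 and UI-R-C2 by -0.43 ± 0.079, each on 8 of 8 arrays with an adjusted p of 0.0137 in the exact test. The other clones of that row were mostly of a few libraries, with 102 UI-R-A0 clones at 2.27 times the median blank, 64 UI-R-BT0 clones at 1.44 times and 22 UI-R-Y0 clones of large source plates at 2.41 times. The 64 UI-R-BT0 clones lay near the members and the UI-R-A0 clones well above them. Among clones of small source plates (defined below), the row 16 median was 1.38 times the median blank for 159 members and 1.38 times for 82 other UI-R clones. All 58 UI-R-C2p clones of that row, at 1.40 times, came from small plates. Among clones of large plates it was 1.38 times for 68 members and 2.30 times for 137 other UI-R clones. The gap between the medians of row 16 was seen among clones of large plates and not among those of small plates. Plate size and library went together there. Of the 137 other UI-R clones of large plates 102 were UI-R-A0, and of the 82 of small plates 64 were UI-R-BT0. Plate size and library therefore cannot be told apart in this gap, and neither was tested. In rows 1 to 12 the members differed from the other UI-R clones by -0.29 ± 0.11 and in rows 13 to 19 by -0.18 ± 0.085, each on 8 of 8 arrays (adjusted exact p = 0.0109). For UI-R-C1 the difference in rows 13 to 19 was -0.13 ± 0.089, lower on 7 of 8 arrays (adjusted exact p = 0.0182), where it was -0.34 over all rows.

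Few members stood above the blanks. A clone was counted as above on an array where its Cy3 and its Cy5 intensity each passed the blanks' 95th percentile. Of the members, 57 (3.34%) did so on all 8 arrays, 166 (9.71%) on at least 4 arrays and 1432 (83.8%) on none. Of the other UI-R clones 891 (12.6%) did so on all 8 arrays, 1951 (27.6%) on at least 4 and 4346 (61.5%) on none. The other libraries differed among themselves: on all 8 arrays 7.75% of UI-R-C0, 9.44% of UI-R-E1 and 9.56% of UI-R-Y0 clones were above, against 18.75% to 24.65% in UI-R-A0, A1, BT0 and E0, and on none 69.5% of UI-R-C0 and 72.1% of UI-R-Y0 clones. The 57 members were 44 UI-R-C1, 8 UI-R-C2 and 5 UI-R-C2p clones, or 4.09%, 1.42% and 7.14% of their libraries, and 71.4% of UI-R-C2p clones were above on none, a share close to those of UI-R-C0 and UI-R-Y0. By array, test_in_Cy5 replicates 1 to 4 had 130, 192, 132 and 185 members above blanks, and test_in_Cy3 replicates 1 to 4 had 173, 203, 95 and 171. The lowest count fell on the bright array, where the blanks themselves spread most in Cy3, their 95th percentile standing at 1.89 times their median against 1.27 to 1.71 times on the other 7. Without that array, the share above blanks on every remaining array was 6.20% of members and 20.8% of the other UI-R clones.

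The members above blanks were also unevenly placed. Of the 57 above on all 8 arrays, 48 lay in rows 13 to 19, which held 345 of the 1709 members. On at least 4 arrays, 26.4% of the members in rows 13 to 19 were above blanks, against 5.96% in rows 1 to 6 and 5.36% in rows 7 to 12. The other UI-R clones gave 39.2%, 19.02% and 20.4% in the same bands. The blanks lay in row 16 of block columns 2 and 4 alone, and clones of that row lay in other block columns too. In row 16 the share was 23.2% of UI-R-C1, 25.7% of UI-R-C2 and 18.97% of UI-R-C2p clones, against 45.2% of the other UI-R clones. From small source plates (defined below) it was 22.6% of the members and 28.05% of the other UI-R clones there. From large plates it was 23.5% and 55.5%.

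A clone name also carries the code of a source plate after the library, and the members came from 54 plates of UI-R-C1, 25 of UI-R-C2 and 21 of UI-R-C2p. In UI-R-C1, 34 small plates gave fewer than 20 clones each, and 27.6% of their 163 clones were above blanks on at least 4 arrays, whereas the 20 large plates gave 7.02% of 912. In UI-R-C2 the 13 small plates gave 18.4% of 76 clones and the 12 large plates 6.56% of 488. All 21 plates of UI-R-C2p were small, and 15.7% of its clones were above. Plate and row went together: the median row was 16 for members of small plates and 10 for members of large plates. Within rows 13 to 19 the shares were 28.3% of 233 members of small plates and 22.3% of 112 members of large plates, and within rows 7 to 12 they were 3.33% of 60 and 5.48% of 985. Within rows 1 to 6 they were 12.5% of 16 and 5.61% of 303. In UI-R-C1 alone, rows 13 to 19 gave 33.3% of 129 clones of small plates and 21.4% of 84 of large plates. The contrast between plates in the members was thus smaller in rows 13 to 19 than over all rows, turned in rows 7 to 12 and rested on 16 clones of small plates in rows 1 to 6. It was not particular to the members. Of the other UI-R clones, 43.7% of 693 from small plates and 25.85% of 6376 from large plates were above. Small plates exceeded large ones by a log2 brightness of 0.36 ± 0.062 in the other UI-R clones and 0.31 ± 0.12 in the members (SD, n = 8 arrays).

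Clones above blanks had smaller measured spots. In Cy5 the mean over arrays of the median spot diameter was 105 ± 4.9 scanner units for the 166 members above blanks on at least 4 arrays and 141 ± 5.7 units for the 1432 members above on none (SD, n = 8 arrays), and blanks measured 145 ± 0.48 units. In Cy3 the values were 120 ± 7.7, 144 ± 1.9 and 145 ± 0.53 units. The unit of the diameter column is not stated in the files. The members above on no array were thus near the blanks in diameter as well. The other UI-R clones had the same order, with 103 ± 3.2 units in Cy5 for those above on at least 4 arrays and 136 ± 8.8 for those above on none. In Cy3 these were 114 ± 8.1 and 143 ± 3.4 units. Diameter was measured on the same spots as the intensity that sorted the clones, so it is not a separate test of the count.

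The brightest member was UI-R-C1-jv-a-01-0-UI, which was the first of the members on every array. Spots of 22 clones reached the highest intensity the scanner recorded, 5242800, and it was the single member (1) among them. Its Cy5 spots were at that ceiling on test_in_Cy5 replicate 1 and on test_in_Cy3 replicates 1, 2 and 3, where its level is a lower limit, and its place among all clones is not given for that reason. In Cy5 it measured at least 39.1 times the median blank on test_in_Cy5 replicate 1, and 47.1, 31.2 and 33.8 times on test_in_Cy5 replicates 2 to 4. On test_in_Cy3 replicates 1 to 3 it measured at least 43.8, 48.0 and 11.7 times, and on replicate 4 it measured 40.0 times. The low limit belonged to the bright array, where the blanks were brighter. The next brightest were UI-R-C1-jw-h-08-0-UI, at 10.8 to 42.9 times the median blank in Cy5, and UI-R-C1-ky-d-01-0-UI, at 10.9 to 42.6 times. These 3 clones kept places 1 to 5 among the members on all 8 arrays.

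In UI-R-C2 the brightest was UI-R-C2-ng-e-10-0-UI. Its Cy5 intensity was 23.1, 23.0, 14.1 and 18.4 times the median blank on test_in_Cy5 replicates 1 to 4 and 26.4, 25.4, 3.57 and 17.7 times on test_in_Cy3 replicates 1 to 4. It moved between places 10 and 31 among the members. UI-R-C2-ng-d-04-0-UI, from the same source plate, lay at 6.67 to 19.6 times, and UI-R-C2-nf-a-09-0-UI at 5.26 to 13.8 times. All 3 lay in row 16 of their blocks.

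In UI-R-C2p the brightest was UI-R-C2p-oi-b-03-0-UI. Its Cy5 intensity was 10.4, 10.4, 7.46 and 15.5 times the median blank on test_in_Cy5 replicates 1 to 4 and 13.4, 14.0, 3.03 and 11.6 times on test_in_Cy3 replicates 1 to 4. UI-R-C2p-oe-g-11-0-UI followed at 3.13 to 11.05 times and UI-R-C2p-od-g-10-0-UI at 3.96 to 8.15 times, both from row 16 as well. The brightest UI-R-C2p clone thus stood at place 23 among the members by mean brightness and the brightest UI-R-C2 clone at place 12.

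The order of the clones by brightness held less well between arrays in the members than elsewhere. Across the 1709 members, Spearman's rho between arrays had a median of 0.685 over the 28 pairs of arrays (range 0.459 to 0.845), against 0.891 (0.688 to 0.956) across the other UI-R clones. By library the medians were 0.702 for UI-R-C1, 0.609 for UI-R-C2 and 0.857 for UI-R-C2p. The 166 members above blanks on at least 4 arrays gave 0.883, and the 1543 members above on fewer gave 0.578. The other UI-R clones gave 0.924 (n = 1951) and 0.726 (n = 5118) in the same split. Clones were split by the same intensities that were ranked, so a gap between the subsets is built into the split. The 7 pairs with the bright array had a median of 0.575 across members, and the 21 pairs without it 0.733. These are correlations across clones, which share arrays and are not independent replicates, so they carry no p.

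The 171 brightest members of each array were shared to a median of 84.5% between 2 arrays, and 81 of them (47.4%) were among the brightest on all 8 arrays. Of the 108 brightest UI-R-C1 clones 54.6% stayed among them on all 8 arrays and of the 56 brightest UI-R-C2 clones 33.9%, against 57.9% of the 707 brightest other UI-R clones. Within 1 array, the duplicate spots of a clone, which lay next to each other for all 1709 members, ranked alike with a median Spearman's rho of 0.959 (0.985 for the other UI-R clones). Their spread was 0.028 ± 0.0043 on the log2 brightness scale in the members and 0.032 ± 0.0045 in the other UI-R clones (SD over 8 arrays). Across members, neighbouring spots of 1 array thus ranked more alike than the clone means of 2 arrays did.

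The dye ratio, log2 Cy5 over Cy3, addressed the question the labels name, an effect of the dye where both channels hold the same RNA. On the deposited intensities the members had a median of 0.61 ± 0.31 (SD over 8 arrays) and the other UI-R clones 0.90 ± 0.27. By library the medians were 0.62 ± 0.31 for UI-R-C1, 0.58 ± 0.32 for UI-R-C2 and 0.83 ± 0.29 for UI-R-C2p. Background correction and a loess fit on brightness within each array removed nearly all of this difference. The loess was fitted to the UI-R clones themselves, so it takes out by design a difference that follows brightness. The members then differed from the other UI-R clones by -0.020 ± 0.023, lower on 6 of 8 arrays, with an exact p of 0.0391 and an adjusted p of 0.0912 over 7 comparisons. UI-R-C1 differed by -0.017 ± 0.026, UI-R-C2 by -0.031 ± 0.029 and UI-R-C2p by -0.023 ± 0.022, with adjusted exact p-values of 0.219, 0.0912 and 0.0912. The 3 pairs of libraries had mean differences of -0.014, -0.0066 and 0.0074, with adjusted exact p-values of 0.252 to 0.438. No library median passed the test in dye ratio after adjustment over the 7 comparisons, although UI-R-C2 was lower than the other UI-R clones on 7 of 8 arrays with an unadjusted exact p of 0.0156. Without the loess fit, with each array centred on its median, the members differed by -0.20 ± 0.13 on 8 of 8 arrays (adjusted exact p = 0.00781).

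After background correction and loess, single clones were noisier in the members. A median over arrays of 10.8% of the members had a log2 ratio beyond 1 in either direction after loess, against 4.43% of the other UI-R clones. The median residual standard deviation of a clone over arrays was 0.40 in the members and 0.22 in the other UI-R clones. The mean log2 ratio of a clone had a median absolute value of 0.18 in the members and 0.098 in the other UI-R clones. With loess but without background correction these were 0.032 and 0.033. On the deposited intensities, duplicate spots had a dye ratio spread of 0.045 in the members and 0.043 in the other UI-R clones. With all clones cut into 5 equal classes by brightness, 41.5% of the members and 14.8% of the other UI-R clones fell in the dimmest class, and 7.02% and 23.1% in the brightest. Within the dimmest class the residual standard deviation was 0.57 in the members and 0.55 in the other UI-R clones, and within the brightest 0.11 and 0.10. UI-R-C2p had 20% of its clones in the dimmest class and 10% in the brightest.

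The dye ratio of a clone held its rank between arrays only weakly. Across members, Spearman's rho between arrays had a median of 0.244 (range -0.117 to 0.457), and across the other UI-R clones 0.213 (-0.076 to 0.418). Among the 166 members above blanks on at least 4 arrays it was 0.144.

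Every clone was tested with limma for a dye effect, its normalised log2 Cy5/Cy3 averaged across the 2 orientations, at a threshold of 0.05 on the adjusted p. Brighter in Cy3 means here a log2 Cy5/Cy3 below 0 after normalisation, and brighter in Cy5 one above 0. It does not mean that the Cy3 intensity was the higher one. UI-R-C1-ks-c-10-0-UI, called brighter in Cy3, had deposited intensities of 91439 in Cy3 and 112029 in Cy5 on test_in_Cy5 replicate 1. Of the members, 63 (3.69%) were called, 4 brighter in Cy5 and 59 brighter in Cy3, and of the other UI-R clones 168 (2.38%), 36 and 132. The background over all 8778 clones was 2.63% called, 0.456% brighter in Cy5 and 2.18% brighter in Cy3. The 63 were 42 UI-R-C1 and 21 UI-R-C2 clones, and 0 of the 70 UI-R-C2p clones were called by limma, of which 25 had an unadjusted p under 0.05. Under other normalisations 9 UI-R-C2p clones were called without background correction, 8 with plain background subtraction and 25 with median centring. The split by direction depended on the normalisation: without background correction 37 members were called brighter in Cy5 and 92 in Cy3 (359 and 397 over all clones), and in the authors' deposited values 24 and 35 (220 and 227 over all clones). So did the size: the called members had a median absolute effect of 0.83, and those called without background correction one of 0.10. Of the 63 calls, 37 had 1 sign on all 8 arrays and 2 were above blanks on all 8 arrays. In the dimmest brightness class, 6.35% of members and 4.20% of the other UI-R clones were called.

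The calls were concentrated in 1 column of print blocks. Of the 63, 48 were in block column 4 and 8, 5 and 2 in block columns 1, 2 and 3. Column 4 was the one where 11.1% of the members were called, against 1.95%, 1.13% and 0.474% in block columns 1, 2 and 3. The other UI-R clones showed the same column ahead at 5.16%, against 1.40%, 2.12% and 0.898%. With loess fitted within each print block, 3 of the 1709 members were called, all 3 of them among the 63. The count also rested on single arrays: it was 2 without test_in_Cy3 replicate 1, 10 without test_in_Cy5 replicate 2, 12 without test_in_Cy3 replicate 2, 23 and 26 without test_in_Cy3 replicate 4 and test_in_Cy5 replicate 3, 31 and 41 without test_in_Cy5 replicates 4 and 1, and 66 without the bright array. Without both arrays numbered 4 it was 13.

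With Cy5 higher after normalisation, UI-R-C1-ln-c-11-0-UI had the largest called effect among the members with 1 sign on all arrays. Its log2 Cy5/Cy3 was 1.17, 1.29, 0.89 and 0.63 on test_in_Cy5 replicates 1 to 4 and 0.37, 0.42, 0.12 and 0.45 on test_in_Cy3 replicates 1 to 4. The effect was 0.67 ± 0.080 (SE), adjusted p = 0.0105 by limma, and the clone was above blanks on 0 arrays. Leaving out each array in turn kept this call in 7 of 8 cases (adjusted p = 0.0512 by limma without test_in_Cy3 replicate 1), and it was lost under loess per print block, under ordinary least squares and in the authors' deposited values. The second, UI-R-C2-ms-c-08-0-UI, had an effect of 0.47 ± 0.093 (limma adjusted p = 0.0487) and its sign turned under loess per print block and in the authors' deposited values. Its call was kept in 1 of 8 cases, the one without the bright array.

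With Cy3 higher after normalisation, UI-R-C2-ne-h-01-0-UI had normalised log2 Cy5/Cy3 values of -1.69, -2.85, -2.04 and -0.68 on test_in_Cy5 replicates 1 to 4. On test_in_Cy3 replicates 1 to 4 they were -2.98, -1.64, -0.30 and -1.22. All 8 values were below 0, with the value nearest to 0 on the bright array. They are values after background correction of a clone near the blanks. On test_in_Cy5 replicate 2, at -2.85, the clone had deposited intensities of 103582 in Cy3 and 102774 in Cy5. On each other array its deposited Cy5 intensity was the higher one. Its effect was -1.67 ± 0.32 (limma adjusted p = 0.0392), and the clone lay at 0.983 to 1.19 times the median blank in Cy3 and 0.844 to 1.23 times in Cy5. UI-R-C1-ks-c-10-0-UI had an effect of -1.53 ± 0.27 (limma adjusted p = 0.0332) at a similar level. Both lay in block column 4 and were above blanks on 0 arrays. With each array left out in turn, each call was kept in 2 of 8 cases.

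The 2 called members above blanks on all 8 arrays were the brightest UI-R-C1 clones. UI-R-C1-jv-a-01-0-UI had a log2 Cy5/Cy3 of -1.02, -0.91, -0.33 and -0.28 on test_in_Cy5 replicates 1 to 4 and -0.93, -0.82, -0.86 and -0.17 on test_in_Cy3 replicates 1 to 4, with an effect of -0.66 ± 0.12 (limma adjusted p = 0.0354). On the 4 arrays where its Cy5 spots were at the scanner ceiling the ratio was -1.02, -0.93, -0.82 and -0.86, each a lower limit, and the other 4 arrays gave -0.91 to -0.17. The call therefore includes saturated values, and it was kept in 1 of 8 cases with an array left out. UI-R-C1-jw-h-08-0-UI, with no spot at the ceiling, had an effect of -0.35 ± 0.068 (limma adjusted p = 0.0444), negative on 8 of 8 arrays. Its call was kept in 0 of 8 cases with an array left out, with adjusted p-values of 0.0542 to 0.128 by limma, and the authors' deposited values gave it the opposite sign, 0.12. The third in brightness, UI-R-C1-ky-d-01-0-UI, had an effect of -0.0041 ± 0.070.

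The RNA named test was compared with the RNA named ref in the same fit, where a difference of 0 was the design. At an adjusted p under 0.05, limma called 0 of the 1709 members and 0.0% of all clones. An unadjusted p under 0.05 was found for 142 members (8.31%) and for 625 of all clones (7.12%). The member with the smallest p was UI-R-C2-ne-a-04-0-UI, with a test over ref of -0.43 ± 0.072 on the log2 scale and an adjusted p of 0.688. Its log2 Cy5/Cy3 was -1.46, -1.07, -1.13 and -1.23 on test_in_Cy5 replicates 1 to 4 and -0.20, -0.60, -0.13 and -0.53 on test_in_Cy3 replicates 1 to 4. The groups did not overlap in this clone, which was above blanks on 0 arrays and was picked from the members for its p. Leaving out both arrays numbered 4 also gave 0 calls among the members.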

How the data were processed

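Total RNA was isolated with TRIzol reagent and labelled by an indirect protocol, per the labels. Per the file headers, the deposited scanner tables give for each spot a Cy3 and a Cy5 intensity that is not background-subtracted, a local background intensity, and other columns (spot diameter and a flag of 0 or 1 whose meaning is not stated). The authors' own deposited values, taken here as log2 ratios of test over ref, have no stated scale, centring or direction, and were used as an alternative only. The scanner and the method behind the authors' values were not given in the sources used here.

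Intensities were corrected by normexp (offset 50), normalised by loess within each array (span 0.3, 4 iterations, control spots at weight 0) and averaged over the spots of a clone. A linear model with a dye and a test over ref coefficient was fitted over all 8778 clones with limma 3.58.1 in R 4.3.3, with 6 residual degrees of freedom, and p-values were adjusted by the Benjamini-Hochberg method. The step was tested on simulated data. Library medians were compared with an exact sign-flip permutation test over 8 arrays (256 sign patterns) in Python 3.11.15 with numpy 2.4.6, scipy 1.17.1 and pandas 2.3.3. The number of arrays limits the precision. Brightness used uncorrected intensities, and a call above blanks used their 95th percentile.

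The clones named are, per library, the 3 brightest above blanks on all 8 arrays, the called members with the 2 largest dye effects in each direction with 1 sign on all arrays and no spot at the ceiling, and the member with the smallest p for test over ref. The member clones, comparisons and lists were chosen with earlier results of these data known.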

Additional observations from a re-analysis of the deposited data

Results flagged for a closer look

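Of 68 sets of 4 arrays of 1 orientation checked for an array far from the other 3, 9 held one, and chance marks about 5% of such sets. Of these, 4 belonged to test_in_Cy3 replicate 3. Its median Cy5 intensity over the members was 442707, against 135031 to 147677 on the other 3 arrays of its orientation. It had 840 member spots with flag value 0, against 31 to 62. Its median log2 Cy5/Cy3 on the deposited intensities was 1.35 over the members, against 0.37 to 0.53, and the standard deviation of the normalised log2 ratios over the members was 0.19, against 0.59 to 0.64. That array was thus brighter, redder and less scattered than the others of its orientation.

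On test_in_Cy3 replicate 2, UI-R-C2 minus UI-R-C1 in dye ratio was -0.058, against 0.0037 to 0.011. Among single clones, UI-R-C1-jv-a-01-0-UI had a log2 Cy5/Cy3 of -0.17 on test_in_Cy3 replicate 4, against -0.93 to -0.82, but on those other 3 arrays its Cy5 spots were at the scanner ceiling, so the ratios there are lower limits and the gap is not one between measured values. UI-R-C2-ms-c-08-0-UI had 0.14 on test_in_Cy5 replicate 3, against 0.44 to 0.45. UI-R-C2-ng-d-04-0-UI had 0.28 on test_in_Cy5 replicate 4, against -0.093 to -0.059. UI-R-C2p-oe-g-11-0-UI had -0.058 on test_in_Cy3 replicate 4, against 0.036 to 0.049.

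Outside the clones, control-15 spots gave a log2 test over ref of 2.94 at label number 1, where blanks gave -0.057.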

How the results depend on the processing

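The brightness differences of the members, UI-R-C1 and UI-R-C2 from the other UI-R clones kept their sign and passed the test under every alternative tried, but not their size: the members ranged from -1.14 with normexp to -0.18 in rows 13 to 19 and UI-R-C1 from -1.11 to -0.13 under the same settings. The row sets were chosen after seeing the data. UI-R-C2p minus the other UI-R clones was -0.22 in rows 13 to 19, -0.26 in rows 1 to 12, -0.37 in row 16 and -0.049 within print blocks, all past the threshold, and ranged from -0.061 (without test_in_Cy3 replicate 3, past the threshold) to -0.033 with 1 array left out. UI-R-C2p minus UI-R-C1 was -0.087 in rows 13 to 19, 0.026 in rows 1 to 12 and 0.031 in row 16. UI-R-C2p minus UI-R-C2 was 0.058 in rows 13 to 19 and in row 16, which hold the same clones of both, and 0.047 in rows 1 to 12, and UI-R-C2 minus UI-R-C1 was -0.14 in rows 13 to 19, -0.021 in rows 1 to 12 and, no longer past the threshold, -0.027 in row 16. The cause was not tested.

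The dye ratio differences depended on the normalisation. With each array centred on its median, all 7 passed the exact test: members -0.20, UI-R-C1 -0.19, UI-R-C2 -0.25 and UI-R-C2p -0.057 against the other UI-R clones, UI-R-C2 minus UI-R-C1 -0.057, UI-R-C2p minus UI-R-C1 0.14 and UI-R-C2p minus UI-R-C2 0.19. With plain background subtraction the members (-0.0069) and UI-R-C2 (-0.0075) passed against the other UI-R clones, and with loess per print block the members (-0.022) and UI-R-C1 (-0.021) did. Loess per print block turned UI-R-C2p against the other UI-R clones to 0.00066 and against UI-R-C1 to 0.022. The authors' deposited values turned the same 2 to 0.0016 and 0.0082, and UI-R-C2 minus UI-R-C1 to 8.2e-05. Without background correction UI-R-C2p minus UI-R-C2 was -0.00080. Over clones above blanks on at least 4 arrays the members (0.0038), UI-R-C1 (0.0034) and UI-R-C2p (0.033) turned against the other UI-R clones, and UI-R-C2p minus UI-R-C1 was 0.030. None of these turned values passed the test other than that of UI-R-C2p minus UI-R-C1 under median centring. The cause was not tested.

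Of the members, the dye effect called 129 without background correction (43 of them among the 63), 105 with plain subtraction (41), 540 with median centring (60), 3 with loess per print block (3), 59 in the authors' deposited values (18), 9 where clones above blanks on at least 4 arrays alone were tested (2), 2 by ordinary least squares (2), 13 without both arrays numbered 4 (9), and 2 to 66 with 1 array left out. Over all clones the count of 231 became 756 without background correction, 653 with plain subtraction, 2534 with median centring, 35 with loess per print block, 447 in the authors' deposited values and 34 by ordinary least squares. For UI-R-C2p the count of 0 by limma (25 unadjusted) became 9, 8 and 25 under the first 3 of these and 4 in the authors' deposited values. With the label number as a replicate block 43 members were called, 29 of them among the 63. Same-numbered arrays deviated together with correlations of -0.018, 0.16, 0.016 and 0.064, and differently numbered arrays with -0.209 to 0.249. These correlations did not set same-numbered arrays apart, but they cannot show that the numbers carry no pairing. The effect of UI-R-C2-ms-c-08-0-UI became -0.043 with loess per print block and -0.014 in the authors' deposited values, and that of UI-R-C1-jw-h-08-0-UI became 0.12 in those values. With each array left out in turn, the 6 named dye calls were lost in 35 of 48 cases. Test over ref called 0 members by limma under each of these settings, and 117 had an unadjusted p under 0.05 by ordinary least squares.

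The share of members above blanks, as a mean over arrays, was 9.37% against 26.4% of the other UI-R clones, became 0.227% against 0.660% over the highest blank and 61.9% against 83.6% over the median blank. The median Spearman's rho of 0.685 between arrays became 0.883 for members above blanks on at least 4 arrays, and Pearson's r was 0.921. Most members were not above blanks on at least 4 arrays: 9.71% were over all rows and 22.9% in row 16, the row of the blanks. Why was not tested.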
